A study of Mus musculus and Sus scrofa with 30 samples.

Results

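Followed here are 10 genes that govern heat production and the making of mitochondria in fat cells, measured in mouse and pig cells induced to become adipocytes. They are Ppargc1a, Ppargc1b, Esrra, Nrf1, Tfam, Prdm16, Ebf2, Dio2, Elovl3 and Ucp2. A gene was taken where its symbol in the authors' table equalled one of these names, ignoring case. The mouse table listed 9 of the 10 among 24843 genes, without Prdm16, and all 9 passed a minimum mean of 10 over the 15 libraries. The pig table listed all 10 among 34307 genes, of which 8 passed and 2, UCP2 and ELOVL3, were low.

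Brown and beige adipocytes burn fuel to make heat, mainly through the mitochondrial carrier UCP1, while white adipocytes store lipid. The coactivators PGC-1α (Ppargc1a) and PGC-1β (Ppargc1b) have no DNA-binding domain of their own and switch on mitochondrial genes through partners such as the orphan nuclear receptor ERRα (Esrra) and the transcription factor NRF1. NRF1 in turn acts on Tfam, whose product packages and transcribes mitochondrial DNA. PRDM16 and EBF2 direct precursor cells toward the brown fate. DIO2 makes active thyroid hormone inside the cell, ELOVL3 lengthens very long fatty acids, and UCP2 is a relative of UCP1 that is found in many tissues.

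The mouse cells were 3T3-L1, a clonal line of embryonic fibroblasts that accumulates lipid when induced. The pig cells were DFAT, fat cells from subcutaneous fat that had lost their lipid and gone back to dividing. Each system had 5 groups of 3 libraries of enriched mRNA from day 5: DMSO vehicle, dicoumarol, magnolol, dicoumarol with magnolol (D+M, here the combination), and rosiglitazone, a drug that activates the adipogenic receptor PPARγ. The sources used here do not give the doses of these compounds. All groups of a system, vehicle included, received its induction mix: insulin, dexamethasone and the phosphodiesterase inhibitor IBMX with 10% serum for 3T3-L1, and dexamethasone, IBMX, biotin and pantothenate with 2% serum for DFAT. No label says that replicates came from separate cultures, so p-values measure the spread between these libraries, which may be technical.

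Depth, estimated from the low values, ranged from 22.8 to 30.7 M reads in 3T3-L1 libraries and from 44.8 to 70.5 M reads in those of DFAT. The summed normalized count of 6 adipocyte markers (Adipoq, Plin1, Fabp4, Cidec, Lpl, Cd36) was 42515 to 60387 in 3T3-L1 vehicle libraries and 317526 to 560289 with rosiglitazone, while dicoumarol (59897 to 94181), magnolol (86031 to 129978) and the combination (112504 to 177395) gave sums between. In DFAT the same sum was 17062 to 20118 for vehicle and 74409 to 81622 for rosiglitazone. It was 21986 to 23719 for dicoumarol, 34540 to 42955 for magnolol and 54711 to 62112 for the combination. The groups were thus not equally differentiated, and in bulk libraries fewer cells of a type and less RNA per cell cannot be told apart. Of 6 fibroblast markers, all fell with rosiglitazone in 3T3-L1, where their sum went from 235983 to 260866 down to 138023 to 179546. In DFAT the list was split. PDGFRA fell in all 4 treated groups (log2 fold change -0.62, -0.34, -0.86 and -1.10 with dicoumarol, magnolol, the combination and rosiglitazone). COL1A1 rose with dicoumarol (0.59), magnolol (0.86) and the combination (0.85), and COL3A1 with magnolol (0.57) and the combination (0.55). The summed fibroblast level in DFAT was 1581900.0 to 1734150.0 with vehicle, 2218790.0 to 2315920.0 with dicoumarol, 2529950.0 to 2898110.0 with magnolol, 2521480.0 to 2997190.0 with the combination and 1233580.0 to 1371920.0 with rosiglitazone. Of the muscle markers, only Myh3 was listed in 3T3-L1, at no more than 3.16, and their summed level was at most 24.5 in DFAT. Endothelial markers summed to at most 29.5 in 3T3-L1. In DFAT they summed to 149 to 239, with Kdr listed at 0 in all libraries. The macrophage markers Ptprc and Adgre1 were not listed in 3T3-L1, where the other 4 summed to at most 86.6. In DFAT, Adgre1 was not listed either and the other 5 summed to at most 105. Mural cell markers, which include Mcam, summed to 134 to 224 in 3T3-L1 vehicle libraries and 584 to 984 with rosiglitazone. There Mcam (log2 fold change 3.47) and Myh11 (1.39) rose, while Notch3 fell (-1.08). In DFAT the mural markers summed to 15926 to 19428 with vehicle, 23696 to 25087 with dicoumarol and 28459 to 32010.5 with magnolol. They summed to 33663 to 35807 with the combination and 23048.5 to 27632 with rosiglitazone. RGS5 (-0.89 with magnolol and with the combination) did not pass. The part of these shifts in the values below was not tested.

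RefSeq promoters (mouse build GRCm38.p6, 250 bases before to 50 after the start) were at hand for 7 of the 10 genes, in 8 windows since Nrf1 has 2. Ucp2, Esrra and Tfam are shown because they are the genes with a promoter at hand that rose with rosiglitazone in 3T3-L1. Capitals mark a match to a motif searched on either strand. In Ucp2 it is CGTCA, the reverse complement of TGACG, the core of the cAMP response element, 62 bases before the start. In Esrra it is the NRF1 core GCATGCGC at 34 bases before the start, and in Tfam the ETS (GABP) motif CCGGAAG at 47.
Ucp2, chr7:100493108-100493407, + strand: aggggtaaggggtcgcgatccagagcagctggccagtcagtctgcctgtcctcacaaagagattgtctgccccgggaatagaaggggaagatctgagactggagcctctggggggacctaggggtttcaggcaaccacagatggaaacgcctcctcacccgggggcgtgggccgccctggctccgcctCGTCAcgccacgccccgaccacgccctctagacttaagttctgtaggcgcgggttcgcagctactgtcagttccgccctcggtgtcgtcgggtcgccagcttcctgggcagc
Esrra, chr19:6921759-6922058, - strand: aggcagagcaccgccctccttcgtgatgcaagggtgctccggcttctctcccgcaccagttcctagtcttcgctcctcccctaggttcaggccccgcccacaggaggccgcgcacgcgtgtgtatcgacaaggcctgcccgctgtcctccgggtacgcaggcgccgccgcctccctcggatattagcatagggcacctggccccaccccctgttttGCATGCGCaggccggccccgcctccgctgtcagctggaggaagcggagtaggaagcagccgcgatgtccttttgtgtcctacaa
Tfam, chr10:71237995-71238294, - strand: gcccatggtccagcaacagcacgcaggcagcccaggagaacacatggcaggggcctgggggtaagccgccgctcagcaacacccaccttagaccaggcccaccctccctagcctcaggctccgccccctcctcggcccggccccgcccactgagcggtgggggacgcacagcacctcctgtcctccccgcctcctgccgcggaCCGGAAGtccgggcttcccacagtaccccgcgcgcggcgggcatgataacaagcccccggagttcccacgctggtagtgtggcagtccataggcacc

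No motif was found in all 3. Among 32851 mouse promoters of this length, 20.8% held TGACG, 2.71% GCATGCGC and 8.86% CCGGAAG. The full cAMP response element TGACGTCA, present in 1.79% of promoters, was found among these genes in Dio2 alone, 95 bases before the start, and it overlaps TGACG on both strands there. Ppargc1a held CGTCA at 49 bases before the start. The ERRα motif TCAAGGTCA (0.423% of promoters), its shorter form AAGGTCA (4.72%) and the PPAR motif DR1 (AGGTCA, any base, AGGTCA; 0.0396%) were in none of the 8 windows. A match is a run of letters and not a measured binding site.

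In 3T3-L1 cells the genes that moved were Ppargc1b, Ebf2, Ucp2, Esrra, Elovl3 and Tfam, all upward, and the largest values were with rosiglitazone. Each fold change was taken on log2(normalized count + 1), so changes of low genes are understated. A gene is called at a limma adjusted p under 0.05 over all 15723 genes tested. Rosiglitazone raised 6 of the 9 genes. Over all genes 40.1% were called, 20.3% upward. One of the 6, Elovl3, reached the minimum mean through the rosiglitazone libraries and so had to differ. The combination raised 3 of 9 (Ebf2, Ucp2 and Ppargc1b), against 5.22% of all genes called and 3.86% called upward. Magnolol raised 3 of 9, again Ebf2, Ucp2 and Ppargc1b, against 1.23% and 1.07%. Dicoumarol gave 0 calls among the 9 and 0% of all genes. Before adjustment 3 of the 9 had p under 0.05 in limma with dicoumarol, as had 393 of all genes. Those 3, Ebf2, Ucp2 and Ppargc1b, lay above every vehicle library, as did 3.15% of all genes, while 5.83% did not overlap in either direction. These comparisons share the vehicle libraries. The fit behind these calls leaves out a pairing of 3T3-L1 libraries by replicate number. With that number as a block, 1, 3 and 4 of the 9 were higher with dicoumarol, magnolol and the combination. With rosiglitazone 6 were then higher and 1 lower. The lower gene was Dio2, which reached the minimum mean through its vehicle and dicoumarol libraries. The share of all genes called with the block was not counted. Groups did not overlap with vehicle for 4 of 9 with magnolol (15.4% of all genes), 4 of 9 with the combination (21% of all genes) and 6 of 9 with rosiglitazone (45.6% of all genes).

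**Figure D1:**
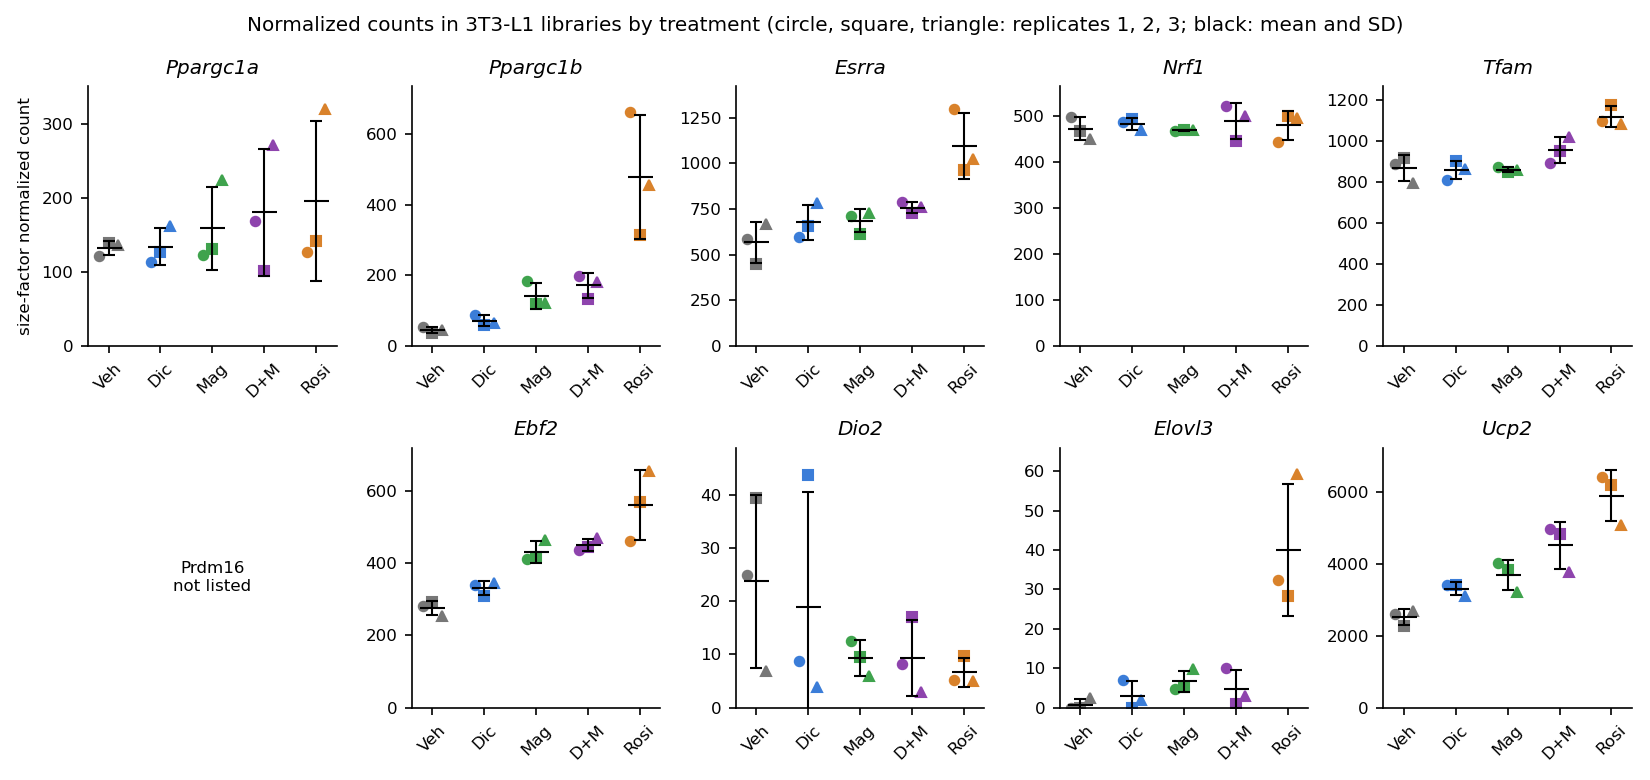
Size-factor normalized count of 9 genes (vertical axis of each panel, starting at 0) in the 15 3T3-L1 libraries by treatment (horizontal axis: Veh, vehicle; Dic, dicoumarol; Mag, magnolol; D+M, combination; Rosi, rosiglitazone). Circles, squares and triangles are replicates 1, 2 and 3, black bars are the mean and SD, cut at 0, and Prdm16 was not listed. For Ppargc1b the 3 rosiglitazone libraries (314 to 663) lie above the other 12, while for Ppargc1a replicate 3 is high in the 4 treated groups.

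Of the PGC-1 coactivators, Ppargc1b carried the change in 3T3-L1. Ppargc1b (ENSMUSG00000033871) had normalized counts of 53.4, 35.9 and 46.5 in vehicle replicates 1, 2 and 3. It had 89.2, 60.9 and 66.3 with dicoumarol, 185, 119 and 121 with magnolol, 199, 133 and 183 with the combination, and 663, 314 and 456 with rosiglitazone. Every treated library lay above every vehicle library, and the 3 rosiglitazone libraries were the highest of all 15. With rosiglitazone the log2 fold change of Ppargc1b was 3.32 (SE 0.26, limma adjusted p = 3.1e-07), a 10.0-fold rise. With the combination it was 1.90 (SE 0.26, adjusted p = 9.12e-04), a 3.72-fold rise, and with magnolol 1.61 (SE 0.26, adjusted p = 0.0091), a 3.06-fold rise. The magnolol call was lost without magnolol replicate 1 (1.41, adjusted p = 0.0673). With dicoumarol the value was 0.66 (95% interval 0.10 to 1.21), which passed only when the replicate number was a block (adjusted p = 0.0488).

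Ppargc1a, the coactivator best known for its induction by cold, gave no call. Its counts were 121, 139 and 136 with vehicle, 114, 127 and 162 with dicoumarol and 123, 131 and 224 with magnolol. They were 169, 101 and 271 with the combination and 127, 141 and 319.8 with rosiglitazone. Replicate 3 was the highest library in each treated group and not in the vehicle group, and all groups overlapped. The test of any difference among the 5 groups gave an adjusted p of 0.788 for Ppargc1a (limma F test), and the rosiglitazone value was 0.44 (95% interval -0.30 to 1.18). Per kilobase of exon in the GENCODE annotation, Ppargc1a had 20.0 ± 1.43 and Ppargc1b 11.4 ± 2.21 normalized counts with vehicle (SD, n = 3). With rosiglitazone the levels per kilobase were 29.7 ± 16.3 for Ppargc1a and 120 ± 43.9 for Ppargc1b, so the order of the pair was the opposite of that with vehicle.

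Esrra, the nuclear receptor through which the PGC-1 coactivators act, rose with rosiglitazone. Its counts were 584, 449 and 669.5 with vehicle, 595, 657 and 783 with dicoumarol, 713, 616 and 731 with magnolol, 786, 729 and 761 with the combination, and 1300.0, 961 and 1026 with rosiglitazone. The rosiglitazone libraries stood above all others, and the combination libraries above the vehicle libraries. The change of Esrra was 0.95 with rosiglitazone (SE 0.15, limma adjusted p = 1.09e-04). With the combination it was 0.44 (SE 0.15, adjusted p = 0.112), which passed when the replicate number was a block (adjusted p = 0.0206).

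Tfam, the packaging protein of mitochondrial DNA, changed less. Tfam counts were 889, 917 and 796 with vehicle, 891, 952 and 1021 with the combination and 1096, 1177 and 1082 with rosiglitazone, and lay between 810.0 and 899.9 with dicoumarol and magnolol. The 3 rosiglitazone libraries were above the other 12. The rise was 0.37 (SE 0.09, limma adjusted p = 0.00286), a 1.29-fold change. Nrf1, the factor that acts on Tfam, lay between 443 and 521 in all 15 libraries, with overlapping groups (F test adjusted p = 0.987). Its rosiglitazone value was 0.02 (95% interval -0.17 to 0.22).

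Ebf2, a factor that opens chromatin at brown fat genes, rose in 3 groups. Ebf2 (ENSMUSG00000022053) counts were 279.7, 293 and 254 with vehicle, 339, 307 and 344 with dicoumarol, 410.2, 417 and 464 with magnolol, 437, 445 and 469.7 with the combination, and 461, 569 and 654 with rosiglitazone. All treated libraries lay above all vehicle libraries, magnolol and combination overlapped, and rosiglitazone overlapped with them only through replicate 1. The change of Ebf2 was 1.01 with rosiglitazone (SE 0.12, limma adjusted p = 1.05e-05). It was 0.71 with the combination (SE 0.12, adjusted p = 0.00251) and 0.64 with magnolol (SE 0.12, adjusted p = 0.0161). Ebf2 no longer passed with magnolol when vehicle replicate 3 (adjusted p = 0.0700), magnolol replicate 1 (0.0714) or magnolol replicate 3 (0.0947) was left out. The dicoumarol value was 0.26 (95% interval 0.01 to 0.52), which did not pass.

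Dio2, the deiodinase, was low and spread widely in 3T3-L1. Its counts were 24.9, 39.4 and 6.97 with vehicle, 8.83, 43.8 and 3.90 with dicoumarol, 12.6, 9.49 and 5.87 with magnolol, 8.11, 17 and 2.98 with the combination, and 5.24, 9.79 and 4.94 with rosiglitazone. Groups overlapped throughout, and replicate 3 was the lowest library of each group. The rosiglitazone value of Dio2 was -1.46 (95% interval -3.05 to 0.13, limma adjusted p = 0.134). It passed with the replicate number as a block (adjusted p = 0.0173) and without vehicle replicate 3 (-2.14, adjusted p = 0.0417). The magnolol, combination and rosiglitazone means of Dio2 were under the minimum of 10. It reached that minimum through its vehicle and dicoumarol libraries, so being tested at all favoured a fall.

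Elovl3, a fatty acid elongase that is abundant in cold-exposed brown fat, was near 0 except with rosiglitazone. Elovl3 counts were 0, 0 and 2.32 with vehicle, 7.07, 0 and 1.95 with dicoumarol, 4.85, 5.27 and 9.78 with magnolol, 10.1, 0.945 and 2.98 with the combination, and 32.5, 28.3 and 59.3 with rosiglitazone. The rosiglitazone libraries were above the other 12, and the magnolol libraries above the vehicle libraries. The fitted change with rosiglitazone was 4.71 (SE 0.77, limma adjusted p = 1.75e-04). From an estimated 105 reads against 2, the ratio was 61.7 with an exact 95% interval of 16.6 to 516 that covers counting error only. For magnolol the ratio from 20 against 2 estimated reads was 10.5 (2.55 to 92.6), and the fitted value of Elovl3 was 2.30 (SE 0.77, adjusted p = 0.237), which did not pass.

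Ucp2, a mitochondrial carrier, had the highest counts of the 9 genes and rose in 3 groups. Ucp2 (ENSMUSG00000033685) counts were 2598, 2273 and 2696 with vehicle, 3409.7, 3401 and 3099 with dicoumarol, 4009.6, 3831 and 3215 with magnolol, 4959, 4812 and 3759 with the combination, and 6412, 6171 and 5083 with rosiglitazone. Every treated library was above every vehicle library, and replicate 3 was the lowest library in each treated group. The change of Ucp2 was 1.22 with rosiglitazone (SE 0.12, limma adjusted p = 2.23e-06) and 0.83 with the combination (SE 0.12, adjusted p = 0.00115). With magnolol it was 0.54 (SE 0.12, adjusted p = 0.0389), and leaving out any 1 of the 6 libraries ended that call (adjusted p of 0.0572 to 0.221). It also did not pass when only the vehicle and magnolol groups were fitted (0.0679), without a variance trend (0.106) or after quantile normalization (0.0596). Ucp1, the brown fat uncoupling protein, did not exceed 1.71 in any 3T3-L1 library, and Cidea, a lipid droplet protein of brown fat, did not exceed 1.95.

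Treated groups of 3T3-L1 were also compared directly. Against the combination, rosiglitazone was higher for 4 of 9 genes, with 18.3% of all genes called and 9.53% upward. Elovl3 is 1 of the 4 and, as it reached the minimum mean through the rosiglitazone libraries, had to differ here too. The 4 were Ppargc1b (1.43, SE 0.26, limma adjusted p = 0.00287), Elovl3 (3.14, SE 0.77, 0.0118), Esrra (0.52, SE 0.15, 0.0243) and Ucp2 (0.39, SE 0.12, 0.038). Elovl3 was lost without combination replicate 2 (0.0551). Esrra was lost without combination replicate 1, 2 or 3 or rosiglitazone replicate 1 (0.0505 to 0.133). Ucp2 was lost without combination replicate 2 or 3 or rosiglitazone replicate 1 or 2 (0.0528 to 0.173). It was also lost with no minimum mean (0.0539), with only these groups fitted (0.0956), without a variance trend (0.0664) and with libraries rescaled to 1 total (0.0867). With the replicate block Tfam (0.23, adjusted p = 0.0315) and Ebf2 (0.30, 0.0415) passed as well, and Ebf2 also without rosiglitazone replicate 1 (0.0311).

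The combination against dicoumarol gave 0 calls among the 9 genes in limma, with 0.0254% of all genes called, while 3 had an unadjusted p under 0.05. These were Ppargc1b (1.24, 95% interval 0.68 to 1.79), Ebf2 (0.45, 0.19 to 0.70) and Ucp2 (0.44, 0.18 to 0.70). All 3 passed with the replicate number as a block, with adjusted p of 1.09e-04, 0.0304 and 0.0135. The combination against magnolol gave 0 calls among the 9 genes and 0% of all genes in limma. Of the 9, 1 had an unadjusted p under 0.05, as had 336 of all genes. It was Ucp2, with a difference of 0.29 (95% interval 0.03 to 0.55). For Ppargc1b that difference was 0.28 (-0.27 to 0.84) and for Ebf2 0.07 (-0.19 to 0.32). The departure of the combination from the sum of the single log2 changes was called for 0 of the 9 genes and 0% of all genes, with 0 of the 9 at an unadjusted p under 0.05. For Ppargc1b it was -0.38 (-1.16 to 0.41). Among all 5 groups, 6 of 9 genes passed the F test, Elovl3 with the same limit among them, as did 28.1% of all genes.

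In DFAT cells a different set moved. PPARGC1A rose with the combination and rosiglitazone, and DIO2 fell with dicoumarol, magnolol and the combination. EBF2 fell slightly with dicoumarol and the combination. By limma over 14819 genes, dicoumarol gave 2 calls of 8, both lower, against 1.94% of all genes called and 1.03% downward. Magnolol gave 1 of 8, lower, against 4.22% and 1.27%. The combination gave 3 of 8, 1 higher and 2 lower, against 10.2% of all genes, 6.11% upward and 4.06% downward. Rosiglitazone gave 1 of 8, higher, against 10.8% and 5.8% upward. The higher gene with the combination and with rosiglitazone was PPARGC1A. It reached the minimum mean through its magnolol, combination and rosiglitazone libraries and so had to differ among the groups. Groups did not overlap with vehicle for 2 of 8 genes with dicoumarol (19.3% of all genes), 4 with magnolol (21.9% of all genes), 4 with the combination (28.9% of all genes) and 2 with rosiglitazone (21.4% of all genes). Scaling matters here: bringing each library to 1 total moved the median log2 change of all genes by -0.14 with magnolol and -0.16 with the combination.

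**Figure D2:**
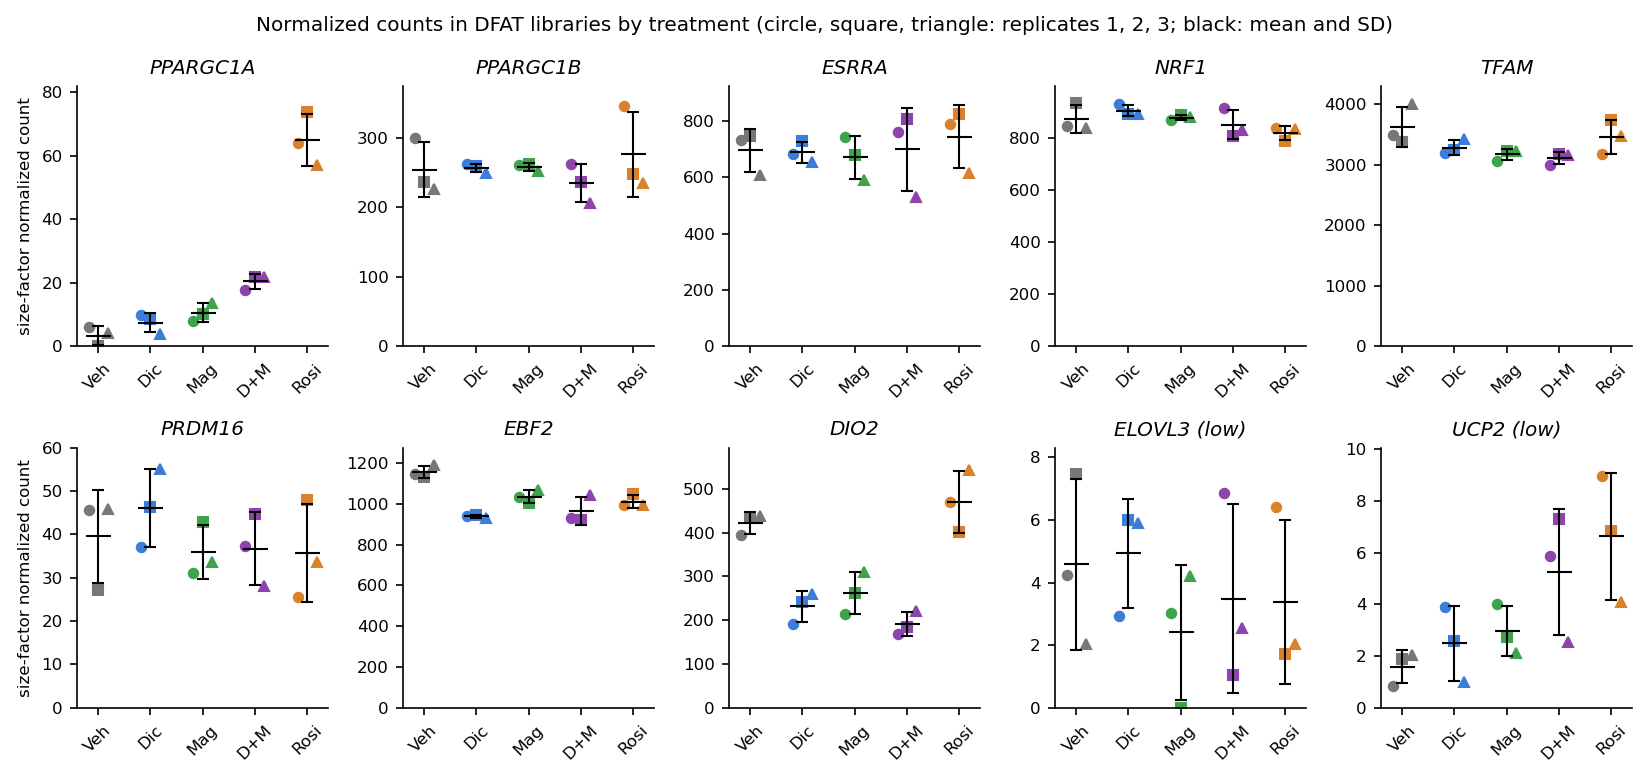
Size-factor normalized count of 10 genes (vertical axis of each panel, starting at 0) in the 15 DFAT libraries by treatment (horizontal axis: Veh, vehicle; Dic, dicoumarol; Mag, magnolol; D+M, combination; Rosi, rosiglitazone). Circles, squares and triangles are replicates 1, 2 and 3, and black bars are the mean and SD. PPARGC1A is at 57.0 to 73.6 with rosiglitazone and at most 21.9 elsewhere, and DIO2 with vehicle and rosiglitazone (394 to 542) lies above the other 9 libraries.

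PPARGC1A (ENSSSCG00000029275), encoding PGC-1α, started close to 0 in DFAT. Its counts were 5.92, 0 and 4.07 with vehicle, 9.75, 8.56 and 3.93 with dicoumarol, 8.03, 10.1 and 13.7 with magnolol, 17.7, 21.9 and 21.7 with the combination, and 64.1, 73.6 and 57.0 with rosiglitazone. Rosiglitazone libraries were the highest, the combination libraries came next without overlap, and magnolol libraries were above the vehicle libraries. Its vehicle and dicoumarol means were under the minimum of 10, so it reached that minimum through the other groups and had to differ. The change of PPARGC1A was 4.32 with rosiglitazone (SE 0.54, limma adjusted p = 2.61e-05) and 2.70 with the combination (SE 0.54, adjusted p = 0.00313). With magnolol it was 1.79 (SE 0.54, adjusted p = 0.0761), which passed with libraries rescaled to 1 total (1.70, 0.0422) or without vehicle replicate 1 (2.33, 0.028). With dicoumarol it was 1.28 (95% interval 0.14 to 2.43, adjusted p = 0.392). PPARGC1B, the gene that rose in 3T3-L1, lay between 206 and 346 in all 15 DFAT libraries, with overlapping groups and a rosiglitazone value of 0.11 (95% interval -0.19 to 0.41, F test adjusted p = 0.803).

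ESRRA and NRF1 gave no call in DFAT. ESRRA lay between 530.0 and 824, with a rosiglitazone value of 0.09 (95% interval -0.21 to 0.40), and NRF1 between 788 and 934, with -0.09 (-0.23 to 0.06). Their groups overlapped in each comparison with vehicle. TFAM counts were 3500.1, 3377 and 4009 with vehicle, 3190.1, 3236 and 3419 with dicoumarol, 3067, 3225 and 3232 with magnolol, 3003, 3178 and 3165 with the combination, and 3176, 3735 and 3476 with rosiglitazone. Magnolol and combination libraries lay below every vehicle library, and the others overlapped with vehicle. The TFAM value was -0.22 with the combination (SE 0.07, limma adjusted p = 0.0615). It passed after quantile normalization (-0.19, 0.0484), rescaling to 1 total (-0.38, 0.0022) or leaving out vehicle replicate 2 (-0.27, 0.0379). With magnolol the TFAM value was -0.19 (adjusted p = 0.164), which passed after rescaling to 1 total (-0.33, 0.0108). That rescaling moved the median log2 change of all genes by -0.16 with the combination and -0.14 with magnolol.

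Of the brown fate regulators, PRDM16 was low in DFAT and did not differ beyond its spread. It lay between 25.6 and 55.1, with a rosiglitazone value of -0.15 (95% interval -0.73 to 0.44) and an F test adjusted p of 0.798. EBF2 (ENSSSCG00000009655) counts were 1148, 1132 and 1189 with vehicle, 939, 946 and 931 with dicoumarol, 1035, 1002 and 1066 with magnolol, 931, 919 and 1045 with the combination, and 994, 1046 and 992 with rosiglitazone. All 12 treated libraries lay below the 3 vehicle libraries. EBF2 fell by 0.30 on the log2 scale with dicoumarol (SE 0.06, limma adjusted p = 0.0181), and leaving out any of the 6 libraries but vehicle replicate 2 ended that call (adjusted p of 0.0657 to 0.0926). With the combination EBF2 fell by 0.26 (SE 0.06, adjusted p = 0.0130), a call lost without combination replicate 1 (0.0632) or 2 (0.0648) and when only these groups were fitted (0.0671). With magnolol the EBF2 value was -0.16 (limma adjusted p = 0.198). It passed after rescaling to 1 total (-0.30, 0.00606), which moved the median of all genes by -0.14. With rosiglitazone it was -0.19 (adjusted p = 0.065), which passed with no minimum mean (0.0462), without a variance trend (0.0496) or without rosiglitazone replicate 2 (0.0491).

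DIO2 (ENSSSCG00000040638) fell with dicoumarol, magnolol and their combination. Its counts were 394, 434 and 439 with vehicle, 191, 242 and 261 with dicoumarol, 214, 261 and 310.4 with magnolol, 169, 185 and 222 with the combination, and 469, 401 and 542 with rosiglitazone. The 9 libraries that received dicoumarol, magnolol or both lay below all vehicle and rosiglitazone libraries, and vehicle and rosiglitazone overlapped. The summed fibroblast markers, mostly the collagens COL1A1 and COL3A1, were highest in the same 9 libraries, while PDGFRA fell in those groups. The part of these markers was not tested. With the combination DIO2 fell by 1.14 on the log2 scale (SE 0.15, limma adjusted p = 6.64e-05), and with dicoumarol by 0.88 (SE 0.15, 0.00374). With magnolol it fell by 0.70 (SE 0.15, 0.0110), a call lost without magnolol replicate 1 (0.0763). The rosiglitazone value of DIO2 was 0.15 (95% interval -0.18 to 0.47, adjusted p = 0.668).

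UCP2 and ELOVL3 were low in DFAT. UCP2 counts were 0.845, 1.87 and 2.04 with vehicle, 3.90, 2.57 and 0.983 with dicoumarol, 4.01, 2.74 and 2.10 with magnolol, 5.89, 7.29 and 2.55 with the combination, and 8.97, 6.85 and 4.07 with rosiglitazone. The magnolol, combination and rosiglitazone libraries were above the vehicle libraries. In a fit with no minimum mean (25194 genes) UCP2 gave 1.54 with rosiglitazone (SE 0.43, limma adjusted p = 0.0629) and 1.22 with the combination (SE 0.43, adjusted p = 0.155), and neither passed. ELOVL3 lay between 0 and 7.47 with overlapping groups. UCP1 was not listed. CIDEA, a lipid droplet protein known from brown fat, had a mean count of 15.2 ± 5.23 in vehicle libraries (SD, n = 3). It was 24.2 ± 4.94 after dicoumarol, 33.8 ± 4.94 after magnolol, 56.0 ± 4.90 after the combination and 31.7 ± 3.06 after rosiglitazone.

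Between treated groups of DFAT, rosiglitazone exceeded the combination for 2 of 8 genes, with 17% of all genes called and 8.24% upward. DIO2 was higher by 1.29 (SE 0.15, limma adjusted p = 1.41e-05) and PPARGC1A by 1.62 (SE 0.54, adjusted p = 0.049). PPARGC1A had reached the minimum mean through its higher groups, which include both of these. The PPARGC1A call was lost without any 1 of the 6 libraries (0.0833 to 0.127), with a pseudocount of 0.5 (0.107), with no minimum mean (0.116) and without a variance trend (0.074). After rescaling to 1 total, which moved the median of all genes by 0.18 here, EBF2 (0.25, 0.0059) and TFAM (0.33, 0.00374) passed as well. The combination against dicoumarol gave 0 calls among the 8 genes in limma, against 2.35% of all genes, and 1 of the 8, PPARGC1A, had an unadjusted p under 0.05 (1.42, 95% interval 0.27 to 2.56). Rescaling moved the median of all genes by -0.11 in that comparison. The combination against magnolol gave 0 of 8 in limma, against 0.621% of all genes. DIO2, 1 of the 8, was under 0.05 before adjustment (-0.44, 95% interval -0.76 to -0.12), as were 989 of all genes. DIO2 passed there with the replicate number as a block (adjusted p = 0.0417). The departure from the sum of single changes was called for 0 of 8 genes in limma and 0.081% of all genes. EBF2, 1 of the 8, had an unadjusted p under 0.05 there (0.20, 95% interval 0.01 to 0.39), as had 582 of all genes. Among all 5 groups, 3 of 8 genes (PPARGC1A, DIO2 and EBF2) passed the F test, PPARGC1A with that same limit, as did 17.9% of all genes.

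Set side by side, the systems differed in which coactivator gene moved. With rosiglitazone, Ppargc1b gave 3.32 in 3T3-L1 against 0.11 in DFAT on the log2 scale. Ppargc1a gave 0.44 against 4.32. In DFAT that gene had a vehicle mean of 3.33. It reached the minimum mean through its magnolol, combination and rosiglitazone libraries and so had to differ. Ebf2 gave 1.01 (limma adjusted p = 1.05e-05) against -0.19, which did not pass (adjusted p = 0.065). The tables were normalized separately and cover different species and induction mixes, and the difference between systems was not tested.

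**Figure D3:**
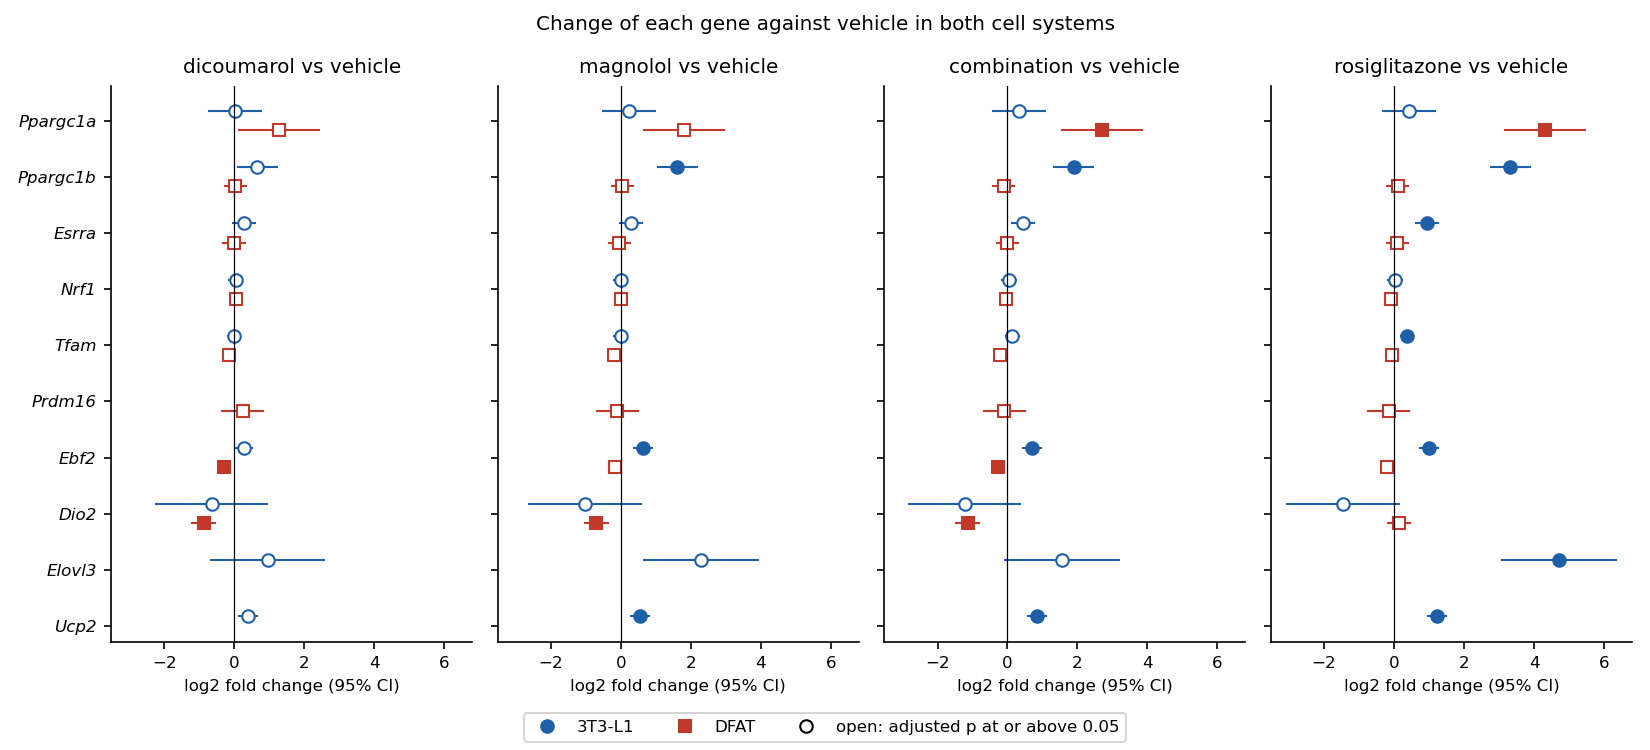
Log2 fold change against vehicle (horizontal axis) of each gene (vertical axis) with dicoumarol, magnolol, the combination and rosiglitazone, in 3T3-L1 (blue circles) and DFAT (red squares). Bars are 95% intervals from limma, filled symbols have an adjusted p under 0.05, and genes not listed or below the minimum mean have no symbol. Ppargc1b is at 3.32 in 3T3-L1 and 0.11 in DFAT with rosiglitazone, and Ppargc1a at 0.44 and 4.32. In DFAT, PPARGC1A reached the minimum mean through its higher groups and so had to differ.

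Other genes of the pathway were taken from lists written from general knowledge. In 3T3-L1, genes of mitochondrial content (enzymes, carriers and chaperones of the organelle) moved upward together with rosiglitazone, where 18 of 18 tested were higher, with a median log2 change of 0.90 against -0.0015 for all genes. Over all genes 20.3% were called upward and 40.1% in either direction in that comparison. The share of normalized counts from genes of the mitochondrial genome was 14.3%, 7.66% and 11.6% in the rosiglitazone libraries, against 5.22% to 7.00% with vehicle and 5.94% to 7.72% in the other 9, and its part was not tested. Idh3a of the citric acid cycle rose by 2.56 (SE 0.16, limma adjusted p = 6.98e-08), Cycs, encoding cytochrome c, by 2.50 and the chaperone gene Hspd1 by 1.43. With the combination 11 of 18 were higher (median 0.38), where 3.86% of all genes were called upward, among them Idh3a (1.24), Cycs (1.10) and Hspd1 (0.85). That count was 13 with the replicate number as a block and 6 without combination replicate 1. With magnolol 1 of 18, Idh3a (0.93), was called, and 10 with the block. The Idh3a magnolol call was lost without vehicle replicate 2 or 3 or magnolol replicate 1 or 3, with an adjusted p of up to 0.0786. With dicoumarol 0 of 18 were called in limma, 4 had an unadjusted p under 0.05 and 2 passed with the block. Of 26 genes that maintain and transcribe mitochondrial DNA, 14 rose with rosiglitazone (median 0.37) and 0 fell, beside the 20.3% upward over all genes. With the block 14 rose and 2 fell, and with libraries rescaled to 1 total 13 rose and 1 fell. They included Slc25a33, a pyrimidine nucleotide carrier (1.32), Atad3a, an inner membrane ATPase (1.18), and the nuclease and helicase gene Dna2 (1.04). With the combination 3 of 26 rose and 6 passed with the block. Atad3a rose by 0.65 and Slc25a33 by 0.84.

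Brown and beige markers were sparse in 3T3-L1: of 25 on the list, 22 were listed and 8 reached the minimum mean. With rosiglitazone 5 of 8 rose and 0 fell (median 0.69), where 40.1% of all genes were called and 20.3% upward. With the block 5 rose and 1 fell. Kcnk3, a potassium channel gene, rose by 3.13 (SE 0.34, limma adjusted p = 4.06e-06), Gk, encoding glycerol kinase, by 1.08 and Pank1, of coenzyme A synthesis, by 0.75. Kcnk3 also rose with the combination (2.18), where 1 of 8 was called and 3 with the block, and with magnolol (1.85), which failed when vehicle replicate 2, magnolol replicate 1 or magnolol replicate 3 was left out (adjusted p of up to 0.0849) and without a variance trend. Of 35 tested regulators of biogenesis and brown fat, 7 rose and 6 fell with rosiglitazone (median -0.0036), a share near the 40.1% of all genes called. Without vehicle replicate 2 or without rosiglitazone replicate 1, 8 were called. Zfp423, a regulator of preadipocyte commitment, rose by 1.20 (SE 0.12, adjusted p = 2.85e-06), and Zfp516, a factor that activates Ucp1, fell by 0.48. Zfp423 also rose with the combination (0.69), where 1 of 35 was called and 2 with the block. Among 10 tested relatives of the members, 1 rose and 7 fell with rosiglitazone (median -0.51), and 4 were called without vehicle replicate 2. Slc25a14 and Slc25a27, 2 uncoupling protein relatives, fell by 0.72 and 0.59. Of 6 tested genes of creatine and calcium cycling, Gamt rose by 1.00 and Slc6a8 fell by 0.90 with rosiglitazone. Adipocyte marker sums rose in the same groups, and their part was not tested.

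In DFAT few genes of mitochondrial content were called under the authors' size-factor scaling, and more fell when libraries were rescaled to 1 total. With rosiglitazone, where 10.8% of all genes were called, 1 of 16 rose, CYCS (0.24, limma adjusted p = 0.00958), and 1 fell, NDUFS1 (-0.17, adjusted p = 0.0362), with a median of 0.02. The CYCS call was lost without vehicle replicate 2, and NDUFS1 without vehicle replicate 2 or 3 or rosiglitazone replicate 1 or 3. With the combination 1 of 16 fell, IDH3A (-0.23, adjusted p = 0.0197), which failed when vehicle replicate 1, vehicle replicate 3 or combination replicate 1 was left out, and 0 rose. After rescaling to 1 total, 8 of 16 fell with the combination and 0 rose. Of 26 genes of mitochondrial DNA upkeep, 2 rose with rosiglitazone, SLC25A33 (0.54) and DNA2 (0.53). DNA2 was lost without vehicle replicate 1 or 2 or rosiglitazone replicate 1 or 3. Magnolol gave 0 calls in limma among the 16 content genes, with 3 at an unadjusted p under 0.05, while 6 of 16 fell and 0 rose after rescaling to 1 total. Rescaling also gave 4 falls with magnolol and 8 with the combination among the 26 mitochondrial DNA genes, against 0 for each without it. Among the 33 regulators it gave 9 falls with magnolol and 12 with the combination, against 2 and 4. The median log2 change of all genes moved as well, by -0.14 with magnolol and -0.16 with the combination. The share of all genes that fell after rescaling was not counted, so these falls are not set against it. The share of counts from the mitochondrial genome in DFAT was 9.58% to 10.2% with vehicle, 10.7% to 11.7% with dicoumarol, 10.5% to 12.9% with magnolol, 12.2% to 15.1% with the combination and 6.85% to 10.8% with rosiglitazone, and its part was not tested.

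Among 14 tested brown and beige markers in DFAT, 3 rose and 2 fell with rosiglitazone (median -0.03), and 3 rose and 1 fell with the combination (median 0.01). Over all genes 10.8% were called with rosiglitazone, 5.8% upward, and 10.2% with the combination, 6.11% upward. PLIN5, a lipid droplet protein of oxidative tissues, rose by 3.27 with rosiglitazone (SE 0.53, limma adjusted p = 3.81e-04) and 2.90 with the combination, from a mean count of 1.64 with vehicle. PLIN5 reached the minimum mean through its magnolol, combination and rosiglitazone libraries, so it had to differ. GK rose by 1.41 with rosiglitazone. CIDEA rose by 1.87 with the combination (SE 0.27, adjusted p = 1.23e-04). With rosiglitazone it rose by 1.07, which no longer passed once vehicle replicate 1 was left out (adjusted p = 0.0743). CITED1 and HOXC9, a pair of beige-associated transcription regulators, fell by 1.13 and 0.40 with rosiglitazone, calls that did not pass when only the vehicle and rosiglitazone groups were fitted. MTUS1, a brown-enriched marker, fell by 0.48 with magnolol and 0.35 with the combination. Of 33 tested regulators, 4 rose and 1 fell with rosiglitazone, where 10.8% of all genes were called and 5.8% called upward. KLF11 (0.78), PPARD (0.53) and THRB (0.39) were among those that rose, and EBF1, a relative of EBF2, fell by 0.53. In the family list ELOVL6, a lipogenic elongase, rose by 1.4 and ELOVL7 by 1.05 with rosiglitazone, and EBF3 fell by 0.37. GATM, of creatine synthesis, and GPD2, of the glycerol phosphate shuttle, fell by 0.69 and 0.50 with the combination. ATP2A2, a calcium pump gene of the same list, rose by 0.27 (limma adjusted p = 0.0430), which failed when vehicle replicate 1, vehicle replicate 2 or combination replicate 3 was left out and after rescaling to 1 total.

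**Figure D4:**
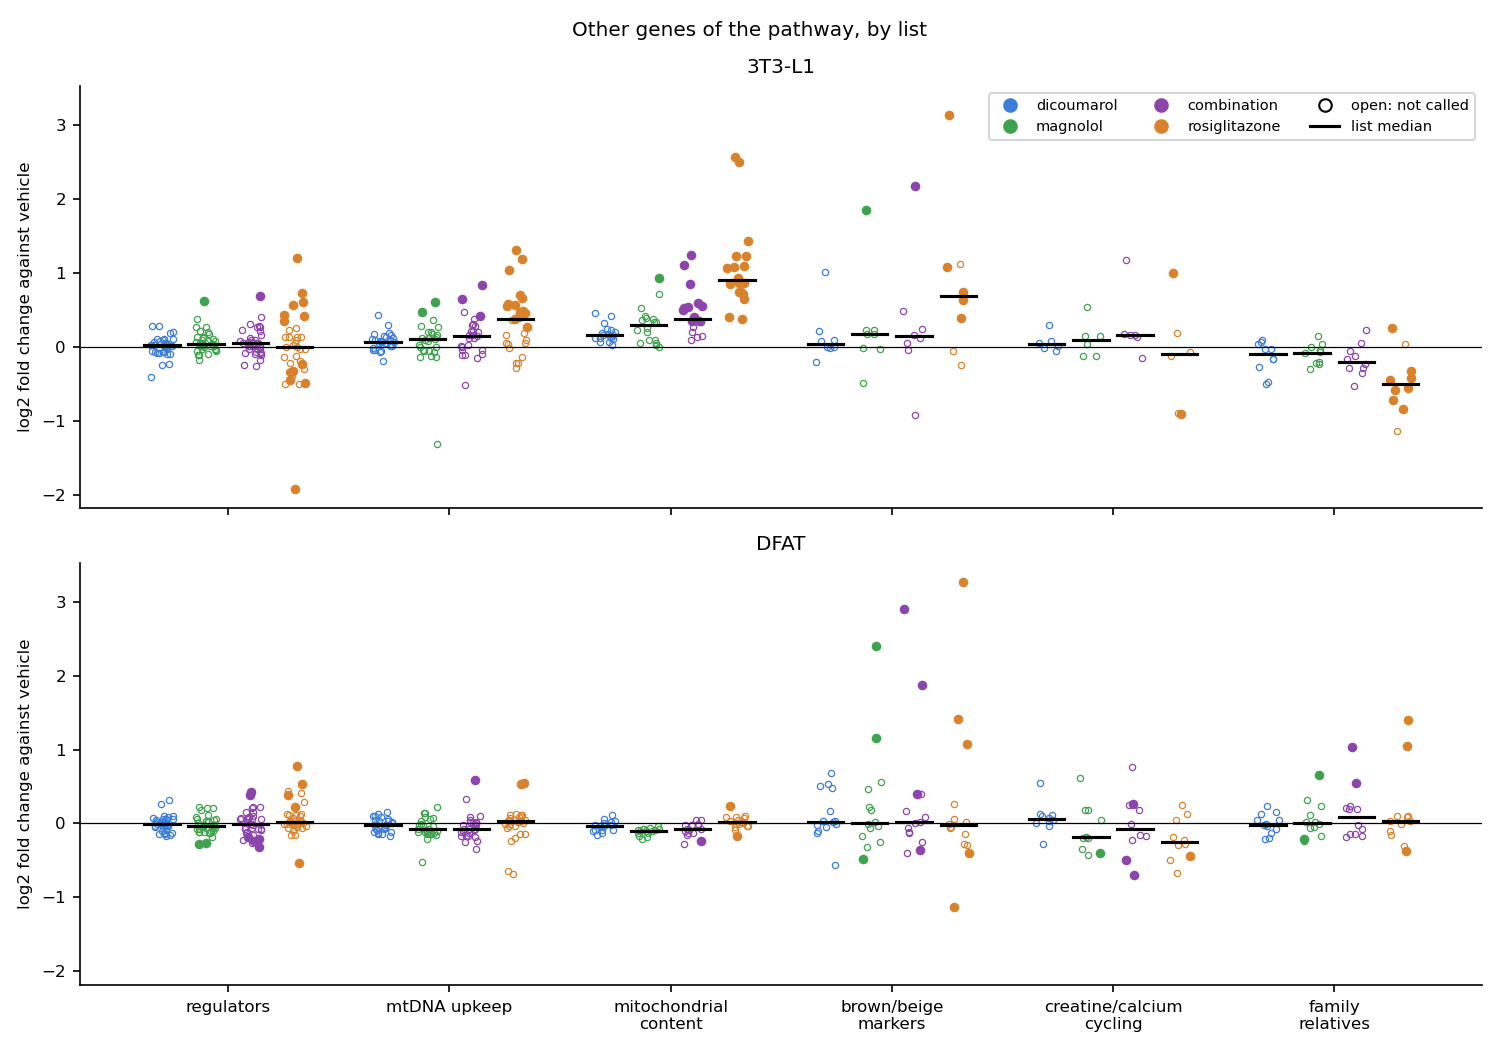
Log2 fold change against vehicle (vertical axis) of the tested genes of 6 pathway lists (horizontal axis) in 3T3-L1 (upper panel) and DFAT (lower panel), coloured by treatment. Each point is a gene, filled where the limma adjusted p is under 0.05, and black lines are list medians. The 18 genes of mitochondrial content have a median of 0.90 with rosiglitazone in 3T3-L1, and the 16 tested in DFAT a median of 0.02.

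Likeness was measured as the root-mean-square difference of centred log2 values over the 15 libraries of a table. Nearest to Ppargc1b were Agpat2, a triglyceride synthesis gene (0.17), Noct (0.17) and Prxl2a (0.19), where the spread of Ppargc1b itself was 1.17. Esrra lay nearest to Acsf2 (0.096), Bckdha (0.099) and Mpc2 (0.10), genes of mitochondrial fuel use. Ucp2 was nearest to Timeless (0.11), Nt5dc2 (0.11) and Atad3a (0.12), Ebf2 to Mapk6 (0.10), Ndc1 (0.12) and Tbc1d4 (0.12), and Tfam to Pole3, Ppp6c and Rsl24d1 (0.058 to 0.072). Elovl3 was nearest to Hcar2 (0.59), Slc2a4 (0.76) and Aqp7 (0.78). Own spreads were 0.36 for Esrra, 0.43 for Ucp2, 0.37 for Ebf2, 0.16 for Tfam and 1.80 for Elovl3. In DFAT, PPARGC1A was nearest to the adipocyte genes FABP4 (0.60) and CIDEC (0.67) and to SNTB1 (0.69). DIO2 was nearest to GZMA (0.16), EREG (0.22) and ABL2 (0.23), and EBF2 to FEZ2, ZMYND8 and HELB (0.061 to 0.067). Here own spreads were 1.57 for PPARGC1A, 0.53 for DIO2 and 0.11 for EBF2. Libraries of a group share their treatment, and no test is attached to these distances.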

How the data were processed

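Bulk RNA-seq values came from 1 table per species. They are signal values that the authors deposited, counts per gene scaled by size factors from DESeq2, per the labels. The submitters' processing notes name bcl2fastq 2.19.1.403, STAR and DESeq2, and GRCm38 as the only build. Since 2.18% of 24070 matched mouse genes had their GENCODE M21 (GRCm38) start, the tables' coordinates were not used. The sources used here name no counter and no annotation. Libraries kept strand by dUTP, per the labels' protocols. Low values (up to 20 reads, tolerance 0.02) were whole in 81.6% to 82.7% (3T3-L1) and 89.8% to 91.0% (DFAT), so whole reads were not recovered and no count test was run across genes. For the Elovl3 ratios alone, values were rounded to estimated reads and summed over the 3 libraries of a group. Their exact binomial intervals leave out the spread between libraries.

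Genes with a mean of at least 10 were fitted with limma 3.58.1 (R 4.3.3) on log2(value + 1), with 5 groups in 1 model, a variance trend and two-sided tests. P-values were adjusted by Benjamini-Hochberg over all genes and called under 0.05. The step was tested on simulated data. Python 3.11.15 handled tables and figures. Replicate numbers pair the 3T3-L1 libraries: all 30 same-number pairs had deviations correlating above 0.1 (lowest 0.106, median 0.300). The main fit leaves that pairing out, and the block takes it in. In DFAT every pair passed only among magnolol, combination and rosiglitazone (0.105 to 0.345), so in DFAT the block bears on comparisons among those 3 groups. Block counts against DFAT vehicle appear only with the alternatives, as unpaired numbers. Besides the 10 genes, Ucp1 and Cidea, named genes are up to 3 called rises and falls per list and comparison with vehicle, and the 3 nearest genes of each gene called by the F test. Genes, lists and tests were chosen with earlier results of these data known. Alternatives were pseudocounts of 0.5 and 5, no minimum, only the groups compared, no trend, quantile normalization, 1 total, the block and leaving out each library.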

Additional observations from a re-analysis of the deposited data

Results flagged for a closer look

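Ebf2, the brown fate regulator, lay above vehicle in 3T3-L1 and below it in DFAT in each comparison with vehicle, with no overlap between treated and vehicle libraries. A gene was flagged where its groups did not overlap and the systems went in opposite directions, so that pattern restates the rule. The share of all genes that meet the rule was not counted. With the combination the log2 values were 0.71 (3T3-L1) and -0.26 (DFAT), and limma called both. With dicoumarol they were 0.26, which did not pass (adjusted p = 0.999842), and -0.30. With magnolol they were 0.64 and -0.16, and with rosiglitazone 1.01 and -0.19. Those DFAT values did not pass (adjusted p = 0.198 and 0.065). The DFAT calls with the combination and with dicoumarol were lost when some single libraries were left out. Over all genes, treated and vehicle groups did not overlap for between 5.83% and 45.6% of 3T3-L1 genes and between 19.3% and 28.9% of DFAT genes. The 4 comparisons of a system share their vehicle libraries, and the difference between systems was not tested.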

How the results depend on the processing

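No alternative reversed a direction of a called gene. With the replicate number as a block the calls went from 0 to 1 for dicoumarol and from 0 to 3 for the combination against dicoumarol in 3T3-L1. There the block also took the adipocyte markers called with dicoumarol from 0 to 5 of 6. The share of all genes called was not counted for any alternative, so these counts have none beside them. In DFAT, where numbers do not pair with vehicle, the block gave 2 for magnolol and 2 for rosiglitazone. It gave 1 for the combination against magnolol, and it changed no other count by over 1.5 times. Rescaling DFAT libraries to 1 total gave 4 for magnolol and 4 for rosiglitazone against the combination. It moved the median of all genes by -0.14 and 0.18 in those comparisons. With no minimum mean and without a variance trend, DFAT rosiglitazone gave 2 each and rosiglitazone against the combination 1 each, as did a pseudocount of 0.5 for the latter. Leaving out 1 library gave, in 3T3-L1, 0 to 2 calls for magnolol (3 with all libraries), 3 for the combination, 6 to 7 for rosiglitazone and 1 to 4 for rosiglitazone against the combination. In DFAT it gave 1 to 2 for dicoumarol, 0 to 2 for magnolol, 2 to 4 for the combination, 1 to 2 for rosiglitazone, 1 for rosiglitazone against the combination (2 with all libraries) and 2 to 3 by the F test. Where fewer libraries were fitted the group left with 2 has less precision; the cause of other moves was not tested. With 3 libraries a group, genes near the minimum mean (Dio2 and Elovl3 in 3T3-L1, PPARGC1A in DFAT) have wide intervals.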
